A study of Mus musculus with 31 samples.

Results

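Peg10 and 9 other imprinted genes, Peg3, Mest, Igf2, H19, Dlk1, Ndn, Cdkn1c, Plagl1 and Grb10, were followed through 31 two-color microarrays of newborn mouse forebrain. Imprinted genes are transcribed mainly from the copy inherited from 1 parent, the other copy being silenced by marks such as DNA methylation that are set in the egg or the sperm. Many of them control growth before and after birth, and several are strongly transcribed in the developing brain, among others in the hypothalamus, the choroid plexus and the meninges. The list was chosen by the log2 ratios of its genes on these same arrays, which are therefore given as a description without a test. Of the 10 genes, 9 had at least 1 probe matched to a symbol through its RefSeq accession, out of 20832 genes with such a probe, and H19, the maternally expressed non-coding RNA next to Igf2, had none. Each gene was represented by its brightest probe.

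The mice were NMRI pups aged 5 days (P5), and each sample was a pool of RNA from 6 ipsilateral hemispheres, from males and females in equal number by the labels and described as sex-matched in the methods. MgSO4 is given in obstetrics to protect the brain of preterm infants, and the dose in the treated pups was 600 mg/kg. Hypoxia–ischemia (HI) joined a ligature of the right carotid to a period of low oxygen, whose end counted as time 0. In the Mg groups, brains taken after MgSO4 were labelled with Cy5 and co-hybridized with Cy3-labelled control brains of the same time. The 3 h group had 4 such arrays, the 6 h group 7, the 12 h group 4 and the 24 h group 4. The HI groups, with 3 arrays at 3 h and 3 at 12 h, set HI brains (Cy5) against naive controls (Cy3). The MgHI groups, again with 3 arrays at 3 h and 3 at 12 h, held brains given MgSO4 an hour before HI. The labels called the controls PBS-treated and the injection subcutaneous, whereas the methods described untreated controls and an intraperitoneal injection, and a treatment tag on the HI arrays named MgSO4 against their titles. For the MgHI arrays the titles gave uninjured MgSO4-treated mice as the Cy3 reference, the methods gave HI mice without MgSO4, and drawings of the design could be read as placing MgHI in Cy3. What a sign meant there was therefore not settled, and for the MgHI arrays only the brighter dye is named. The labels name no dye swap.

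Peg10 (paternally expressed gene 10) derives from a retrotransposon and is required for the placenta, and it shares its promoter region with Sgce, a sarcoglycan gene. Peg3 and Plagl1 encode zinc finger transcription factors. Igf2 is a fetal growth factor, Dlk1 a membrane ligand that restrains differentiation, and Grb10 an adaptor that dampens insulin and IGF receptor signalling. Cdkn1c inhibits cyclin-dependent kinases, Ndn (necdin) holds neurons out of the cell cycle, and Mest belongs to the alpha/beta hydrolase family. Grb10 is transcribed in most tissues from the maternal copy and in neurons from the paternal one. Cdkn1c and H19 are maternally expressed, and the others paternally.

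CpG pairs are the sites at which imprints are written. The 250 bases before the RefSeq start site (build GRCm38.p6, printed 5′ to 3′ on the gene's strand, each CG pair in capitals) are shown for Plagl1, whose mean ratio at HI 12 h was next to that of Peg10, and for Ndn and Grb10, which kept 1 sign on all MgHI arrays. The promoter table held starts for 7 of the 10 genes, not for Peg10, H19 or Cdkn1c.
Ndn (chr7:62348027-62348276, plus strand): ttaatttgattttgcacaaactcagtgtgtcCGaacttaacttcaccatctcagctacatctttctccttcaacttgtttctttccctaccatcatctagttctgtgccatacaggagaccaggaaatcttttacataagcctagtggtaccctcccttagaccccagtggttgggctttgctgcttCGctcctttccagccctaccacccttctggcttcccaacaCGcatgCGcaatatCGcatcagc
Plagl1 (chr10:13090582-13090831, plus strand): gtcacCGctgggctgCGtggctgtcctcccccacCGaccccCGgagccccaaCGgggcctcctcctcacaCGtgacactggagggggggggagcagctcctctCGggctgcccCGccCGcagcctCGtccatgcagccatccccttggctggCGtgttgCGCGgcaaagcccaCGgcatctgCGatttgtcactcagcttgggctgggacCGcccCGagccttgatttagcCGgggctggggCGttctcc
Grb10, first of 2 starts (chr11:12037421-12037670, minus strand): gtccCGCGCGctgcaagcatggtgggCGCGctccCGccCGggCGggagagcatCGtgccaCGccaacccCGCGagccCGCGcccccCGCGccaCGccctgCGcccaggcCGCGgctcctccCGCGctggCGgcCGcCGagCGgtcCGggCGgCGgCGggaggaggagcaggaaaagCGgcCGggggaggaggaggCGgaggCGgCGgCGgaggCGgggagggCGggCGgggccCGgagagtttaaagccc
CG, which reads the same on both strands, occurred 5 times before Ndn, 19 times before Plagl1 and 40 times before this Grb10 start. Over all 32851 starts of the table the median was 6. At least as many CG pairs as before Ndn were found at 55.6% of the starts, as before Plagl1 at 19.7% and as before Grb10 at 1.31%. Among the 13 starts of the 7 genes the range was from 1, at the first of 4 Igf2 starts, to the 40 of Grb10. The letters describe the windows and say nothing of their methylation in these brains.

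Signals were compared as the log2 ratio of processed Cy5 to Cy3 signal, and for single channels as the level, the log2 processed signal minus the 75th percentile of its array and channel. A probe counted as well above background where the scanner software flagged it so, which held for 44.2% to 69.5% of the probes of an array and channel, and no probe was saturated. All 6 neuron markers were well above background on every array. Control levels at Mg 3 h came from slides that held no other group, so 3 h and the other times cannot be told apart from slide there. At Mg 6 h the arrays split, with 6 of the array pairs correlating under -0.3 over all probes (lowest r -0.43). Replicates 1, 2 and 6 opposed replicates 3 and 7 in particular, so the direction at 6 h was not settled, and the plot of ratios shows every array. In bulk tissue of this kind, fewer cells of a type and less RNA per cell cannot be told apart. The labels call the arrays of a group biological replicates without giving their litters, and p-values measure the spread between these pools only.

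Peg10 was measurable in the HI and MgHI experiments and not in the Mg experiment. Its brightest probe was well above background in Cy3 on 10 and in Cy5 on 11 of the 31 arrays. On none of the 19 Mg arrays did either channel pass, with signals of 2.75 to 11.9, so the Mg ratios of Peg10 carried no information on direction. In the HI experiment the controls (Cy3) gave signals of 61.5, 114 and 59.9 at 3 h and the HI brains (Cy5) 96, 93.5 and 75.4, and these 2 sets overlapped. The corresponding log2 ratios were 0.64, -0.29 and 0.33 (mean 0.23 ± 0.47, SD, n = 3).

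At HI 12 h the Cy5 signals of Peg10 stayed close together, at 101, 87.7 and 102, while the Cy3 signals were 76, 7.64 and 27.1. The ratios were 0.41, 3.52 and 1.91 (mean 1.95 ± 1.56), all above 0 but set by the scatter of the control channel. The control signal of replicate 2 was not well above background. On that same array the other Peg10 probe read 87.7 in Cy3 and 76.8 in Cy5, although it was not well above background on the other HI arrays, so the probes of the gene contradicted each other there.

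The MgHI 3 h arrays held the Peg10 ratios farthest from 0 in their group mean. There the Cy3 signals were 112, 159 and 102 and the Cy5 signals 16.6, 21.7 and 15.9, with every spot well above background. The log2 ratios of -2.75, -2.87 and -2.68 (mean -2.77 ± 0.10, n = 3) put Cy3 6.82-fold over Cy5. The spread between the 3 arrays was small against this distance, whose size depended on the background: the mean was -1.41 without background subtraction and -1.10 with normexp correction. At 12 h replicates 1 and 2 gave like values, with 99.7 and 99.4 in Cy3 against 18.4 and 15.2 in Cy5 and ratios of -2.44 and -2.71. Replicate 3 read 7.27 in Cy3 and 10.2 in Cy5, not well above background in either, with a ratio of 0.49. The mean of -1.55 ± 1.77 thus became -2.57 without replicate 3.

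The other Peg10 probe did not share this pattern. It was well above background on 2 arrays in Cy3 and 1 in Cy5, and its mean ratio at MgHI 3 h was -0.04, with signals of 14.3, 11.4 and 10.1 in Cy3 and 12.3, 9.18 and 13.5 in Cy5. The Peg10 statements above therefore rest on 1 probe. The plot of Peg10 signals shows both probes on every array.

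**Figure D1:**
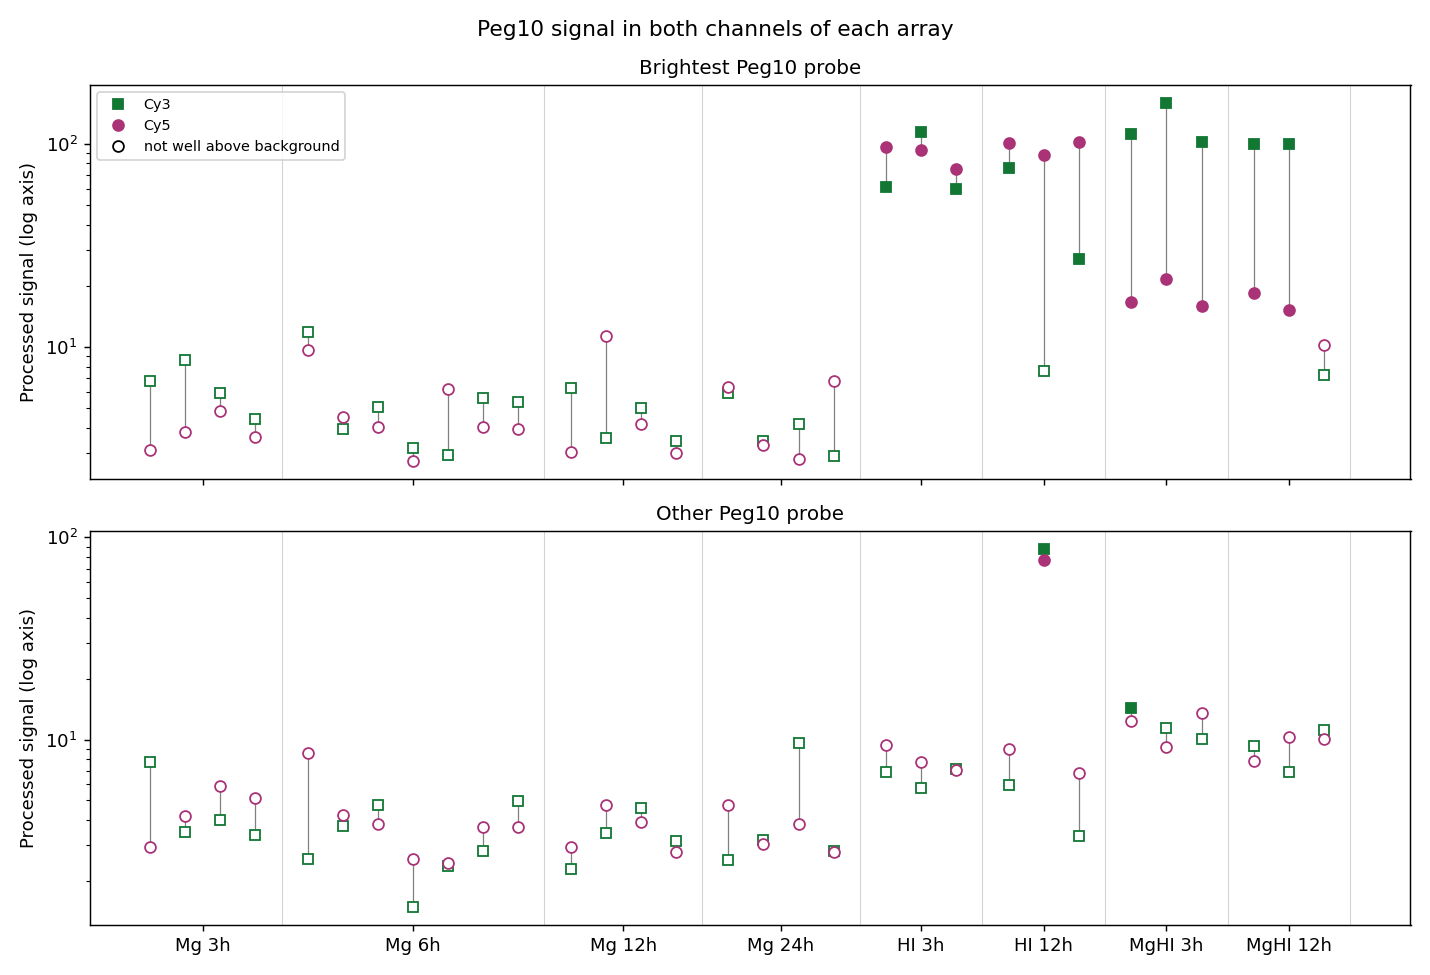
Processed signal (log axis, arbitrary scanner units) of the brightest Peg10 probe (top) and of the other Peg10 probe (bottom) on each of the 31 arrays, squares for Cy3 and circles for Cy5, open where not well above background. On the 19 Mg arrays the brightest probe stays at 11.9 or below in both channels, and on the MgHI 3 h arrays its Cy3 signals of 102 to 159 lie above Cy5 signals of 15.9 to 21.7.

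Read by single channel, the Peg10 level in Cy3 ran from MgHI 3 h (mean -2.52 ± 0.44, log2 from the 75th percentile) over HI 3 h (-3.03 ± 0.46), MgHI 12 h (-3.89 ± 2.07) and HI 12 h (-4.72 ± 1.47) to the Mg groups. Their means lay between -6.58 and -6.35, at background. Neighbours in that order overlapped in their ranges. In Cy5 the order was HI 12 h (-2.77 ± 0.20), HI 3 h (-2.79 ± 0.34), MgHI 3 h (-5.28 ± 0.34) and MgHI 12 h (-5.44 ± 0.29), with Mg means from -7.28 to -6.41. The HI arrays (-3.11 to -2.44) and the MgHI arrays (-5.77 to -4.92) did not overlap in Cy5, with a difference of -2.50 at 3 h and -2.67 at 12 h. In Cy3 the corresponding differences were 0.50 and 0.84, with overlapping values. No test was made, since the ratios of these arrays had chosen Peg10.

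By the root mean square difference of log2 ratios over all 31 arrays, Ehbp1 was nearest to Peg10 among 13330 genes (0.79), followed by Kitl (0.93), Rnu1b6 (1.01), Ttc9 (1.04) and Rad18 (1.11), against 1.44 for a gene with ratios of 0 throughout. On the 19 Mg arrays among them Peg10 was at background, so part of each distance is the scatter of its dim probe. Ehbp1 encodes an adaptor of endocytosis and Kitl the ligand of the Kit receptor. Their mean ratios at MgHI 3 h were -2.26 for Ehbp1 and -1.75 for Kitl, and at MgHI 12 h -1.54 and -1.56. At HI 12 h both means were above 0, at 1.07 and 0.51. At HI 3 h both were below 0, at -0.42 and -0.15, while the Peg10 mean was 0.23. None of the 5 is an imprinted gene of the lists used here.

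The growth factor Igf2 was higher in HI brains on all 6 HI arrays. Its ratios were 0.29, 0.22 and 0.70 at 3 h (mean 0.40 ± 0.26) and 0.74, 1.37 and 1.25 at 12 h (mean 1.12 ± 0.33), so the 12 h arrays all lay above the 3 h arrays. At MgHI 3 h all 3 ratios were above 0 (0.21, 0.08 and 0.52) and at MgHI 12 h all 3 below (-0.13, -0.90 and -0.15). Igf2 in the neonatal brain comes largely from the choroid plexus and the leptomeninges. Of 8 choroid plexus markers 7 had a mean ratio above 0 at HI 12 h, with a list median between 0.45 and 0.51 on the 3 arrays. The summed level of that list, each gene taken relative to the 75th percentile on the linear scale, was 53.1 to 65.2 in the controls and 84.3 to 145 in the HI brains, with F5 never and 6 of the 8 always well above background. For the 8 markers of leptomeninges and fibroblasts, 5 had a mean above 0 and the sums were 16.3 to 22.3 in the controls and 19.8 to 25.4 in the HI brains. At HI 3 h, with Igf2 above 0 as well, the choroid plexus median was -0.21 to 0.05 with 4 of 8 means above 0, and at MgHI 12 h, with Igf2 below 0, it was -0.09 to 0.46 with 5 of 8. Their part in the Igf2 values was not tested.

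Plagl1 and Peg3, the zinc finger genes, also had the HI brains above their controls on all 6 HI arrays. Plagl1 gave 0.54, 0.58 and 0.64 at 3 h (mean 0.59 ± 0.05) and 1.61, 1.73 and 0.95 at 12 h (mean 1.43 ± 0.42). A 2nd Plagl1 probe gave nearly the same means, 0.60 and 1.40. A further probe lay at 0.45 and 0.46, without the rise between the times, and the last at -0.17 at both, so the 4 probes of the gene disagreed. On the MgHI arrays Plagl1 ranged from -0.43 to 0.28 at 3 h and from 0.01 to 0.62 at 12 h.

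For Peg3 the ratios were 0.28, 0.66 and 0.40 at HI 3 h (mean 0.44 ± 0.20) and 0.86, 0.83 and 0.85 at HI 12 h (mean 0.85 ± 0.02). The 12 h arrays were closely matched and all above those of 3 h. Its other probe, well above background on at most 1 array and channel at 3 h and on none at 12 h, had means of -0.03 and 0.00. On the MgHI 3 h arrays that other probe was higher in Cy5 (mean 1.04, from 0.63 to 1.36), which the brightest probe was not. At MgHI 12 h the brightest Peg3 probe scattered over 0.30, -1.13 and -0.53, and at MgHI 3 h it lay between -0.18 and 0.13.

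Mest, Grb10, Cdkn1c, Dlk1 and Ndn had smaller mean ratios after HI alone by their brightest probes. Mest was at 0.40, 0.80 and 0.40 at HI 12 h (mean 0.53 ± 0.23) and spanned 0 at 3 h. Both other Mest probes were above 0 on all 6 HI arrays, with means of 0.36 and 0.57 at 3 h and 0.64 and 0.39 at 12 h, so the 3 probes disagreed at 3 h. Grb10 was at 0.09, 0.29 and 0.54 at HI 12 h (mean 0.31 ± 0.22) and within 0.08 of 0 at 3 h. Cdkn1c, Dlk1 and Ndn had arrays on both sides of 0 at both times, with means from -0.11 (Ndn, 12 h) to 0.37 (Dlk1, 12 h). The other Dlk1 probe was above 0 on all HI 12 h arrays (0.69 to 1.09, mean 0.91). Over all 9 genes, 3 were above 0 on every HI 3 h array, where 26.2% of all probes tested were, and none was below on every array, against 31.1% of the probes. At HI 12 h 6 of 9 were above on every array (23.4% of probes) and none below (27% of probes). These ratios named the genes, so nothing is read from the counts.

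On the MgHI arrays Ndn and Grb10 stood apart together with Peg10. Ndn was higher in Cy5 on all of them, with 0.88, 0.89 and 0.80 at 3 h (mean 0.86 ± 0.05, 1.81-fold) and 0.84, 0.97 and 0.25 at 12 h (mean 0.69 ± 0.38). Grb10 was higher in Cy3 on all of them, with -0.26, -1.03 and -0.45 at 3 h (mean -0.58 ± 0.40) and -0.79, -1.01 and -0.41 at 12 h (mean -0.74 ± 0.30). The HI arrays of Ndn (-0.39 to 0.15) and of Grb10 (-0.08 to 0.54) did not reach into these ranges. Cdkn1c was above 0 on the 3 h arrays (0.20, 0.28 and 0.47) and spanned 0 at 12 h. By the brightest probe Dlk1 and Mest at 3 h each had a mean of 0.05, while the other Mest probes were above 0 on all 3 arrays (means 0.25 and 0.54). In all, 3 of 9 genes were above 0 on every MgHI 3 h array and 2 below (25.3% and 27% of all probes), and at MgHI 12 h again 3 were above and 2 below (26.5% and 26%).

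**Figure D2:**
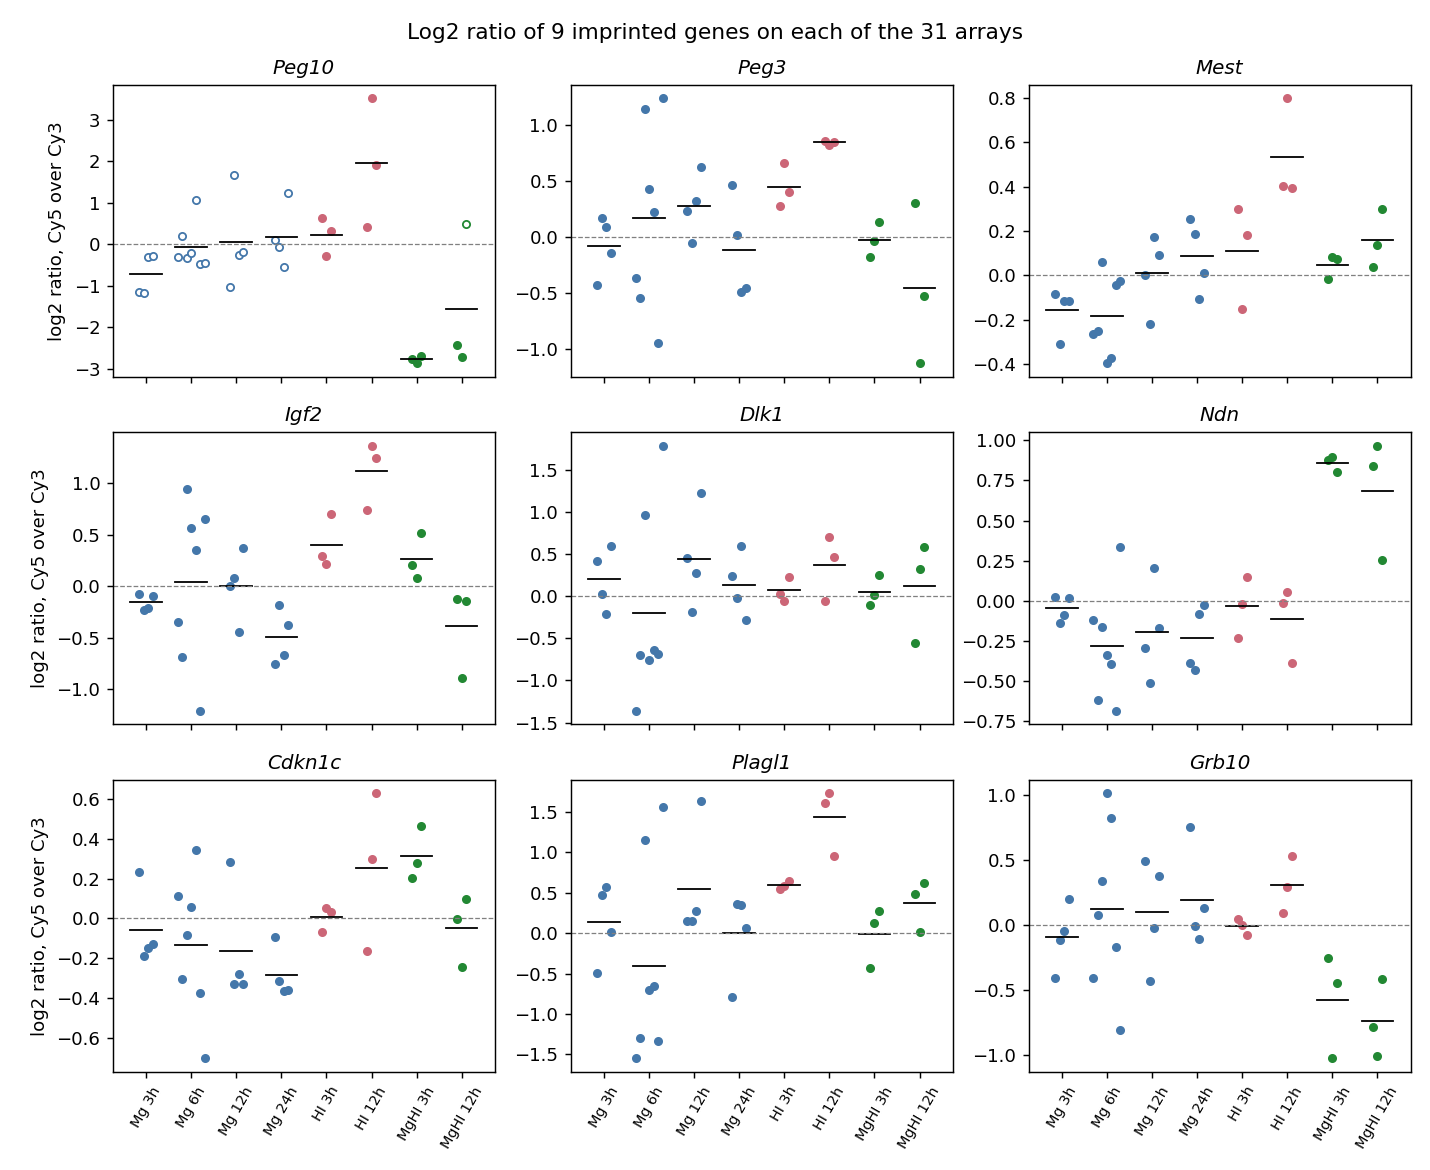
Log2 ratio of Cy5 to Cy3 signal of the 9 imprinted genes with a probe, 1 panel a gene with its own vertical scale, by group; points are arrays, open where the gene was well above background in neither channel, and bars are group means. Peg10 lies between -2.87 and -2.68 at MgHI 3 h, and Igf2, Peg3 and Plagl1 lie above 0 on all HI arrays by their brightest probe.

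After MgSO4 alone 2 of the 8 measurable genes kept 1 sign on all arrays at 3 h by the brightest probe. At 6 h 0 did, at 12 h 1 did and at 24 h 3 did. The share of all probes that did so was not taken for these groups, so nothing is read from the counts. At 24 h Igf2 was below 0 on all 4 arrays (-0.76, -0.19, -0.67 and -0.37, mean -0.50 ± 0.27). Cdkn1c (-0.10, -0.32, -0.36 and -0.36, mean -0.28 ± 0.13) and Ndn (-0.39, -0.43, -0.08 and -0.02, mean -0.23 ± 0.21) did the same. At 3 h Igf2 (-0.23 to -0.08) and the brightest Mest probe (-0.31 to -0.08) were below 0 on all 4 arrays. A 2nd Mest probe was above 0 on the same 4 arrays (0.018 to 0.26), so Mest had no settled sign there. The brightest Plagl1 probe at 12 h was above 0 on all 4, but replicate 4 at 1.63 stood far from the others at 0.14 to 0.27. A 2nd Plagl1 probe was above 0 as well (0.16 to 1.51). The further probes spanned 0 (-0.39 to 0.71 and -0.32 to 0.91), so Plagl1 had no settled sign there. The group means of the 8 genes lay between -0.15 and 0.21 at 3 h, and at 24 h between -0.50 and 0.19.

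At 6 h, the time with 7 arrays, Plagl1, Dlk1 and Peg3 followed the split between the arrays by their brightest probes. The brightest Mest probe (-0.40 to 0.06) and Ndn (-0.69 to 0.33) did not, each being below 0 on 6 of the 7 arrays. The other Mest probes ran from -0.15 to 0.39 and from -1.22 to 0.80, so Mest had no settled sign. Plagl1 was at -1.55, -1.30 and -1.33 on replicates 1, 2 and 6 and at 1.15 and 1.55 on replicates 3 and 7. A 2nd Plagl1 probe had a like range over the 7 arrays (-1.51 to 1.62). The further probes went less far below 0 (-0.40 to 1.87 and -0.37 to 1.48). Dlk1 was at -1.36, -0.70 and -0.68 on replicates 1, 2 and 6 and at 0.96 and 1.79 on replicates 3 and 7. Peg3 was at -0.37, -0.54 and -0.95 against 1.14 and 1.24. The marker lists moved with the same arrays, hypothalamus markers having a median ratio of 0.07, 0.38 and 0.46 on replicates 1, 2 and 6 and of -0.35 and -0.44 on replicates 3 and 7, and 10 of 10 had a probe. Cortex markers had medians of -0.38, -0.32 and -0.46 against 0.36 and 0.49, over 6 markers. The part of tissue makeup in the 6 h ratios was not tested.

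Levels in the Cy3 controls of the Mg experiment were compared between times by the brightest probe alone, and other probes of a gene were not compared. The 3 h controls came from slides that held no other group. This contrast between times in 1 channel was not the one that chose the genes, although Cy3 is the denominator of the ratios that did. The p-values of control levels, here and for the HI controls, are therefore not independent of that choice. The test was limma over 24959 probes, a call needing an adjusted p under 0.05 and a 1.5-fold change. Mest and Plagl1 were higher in the 3 h controls than at each later time and Peg3 than at 6 h and 12 h, although the sign of Peg3 turned with normexp correction, while Ndn was lower at 3 h than at 6 h only under some scalings. The Mest level fell from 0.52 ± 0.12 (n = 4) at 3 h to -0.62 ± 0.15 (n = 7) at 6 h, a difference of -1.14 (SE 0.15, adjusted p = 0.000325, limma), and the arrays of both times did not overlap. The differences from 3 h at 12 h and 24 h were -1.07 and -0.99, both called. Peg3 differed from 3 h by -1.20 at 6 h (SE 0.32, adjusted p = 0.00866, limma) and by -1.18 at 12 h, both called, and by -0.89 at 24 h without a call (adjusted p = 0.0629). With normexp background correction the Peg3 differences turned to 0.34 and 0.68.

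Plagl1 was at 1.26 ± 0.32 in the 3 h controls and differed by -1.26 at 6 h (SE 0.41), -1.93 at 12 h (SE 0.46) and -1.30 at 24 h (SE 0.46), with adjusted p of 0.0247, 0.00390 and 0.0381 (limma). The calls at 6 h and 24 h were lost with slide as a random block (adjusted p = 0.0631 and 0.0701, limma). Without Mg 24 h replicate 4 the 24 h difference was -0.75 (adjusted p = 0.160, limma). Ndn was 0.74 higher at 6 h than at 3 h (SE 0.25, adjusted p = 0.0267, limma), but 0.59 with adjusted p = 0.116 when arrays were centred on the median, 0.36 with quantile normalization, and -0.23 with normexp. At 12 h and 24 h Ndn differed from 3 h by 0.51 and 0.42 without a call (adjusted p = 0.145 and 0.245, limma). Calls thus came to 4 of 8 genes between 6 h and 3 h, where 33.4% of all probes were called, 3 of 8 between 12 h and 3 h (40.8%), and 2 of 8 between 24 h and 3 h (33.6%). At an unadjusted p under 0.05 these counts were 4, 3 and 3, beside 46.2%, 51.1% and 46% of all probes. Igf2, Dlk1, Cdkn1c and Grb10 had no call. Cdkn1c on Mg 3 h replicate 3 was dim in both channels (levels -2.79 and -2.93, all other arrays being at 1.40 or above), which widened its spread.

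Between 6, 12 and 24 h no gene was called, nor any other probe (0% in all 3 comparisons), and at an unadjusted p under 0.05 the count for these genes was 0 as well, beside 2.26% (12 h against 6 h), 3.83% (24 h against 6 h) and 1.47% (24 h against 12 h) of all probes. The 3 h controls also differed in summed cortex markers, at 17.3 to 22.6 against 9.73 to 14.6 later. Summed microglia markers overlapped, at 16.7 to 20.6 at 3 h and 16.6 to 53 later (6 of 6 markers measured throughout). Sums of the neuron, choroid plexus, leptomeninges, hypothalamus, thalamus and endothelium lists overlapped between 3 h and the later times as well. Their part in the values of the imprinted genes was not tested.

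The controls of the HI experiment gave a comparison of 12 h with 3 h in other mice, with 1 slide holding both times. No gene was called between 12 h and 3 h, where 0% of the probes were, while 3 of 9 passed an unadjusted p under 0.05, as did 30.2% of all probes. Plagl1 was at 1.15 ± 0.20 at 3 h and 0.17 ± 0.14 at 12 h (difference -0.98, SE 0.15, adjusted p = 0.0776, limma). Peg3 was at -1.65 ± 0.10 and -2.30 ± 0.05 (difference -0.65, SE 0.11, adjusted p = 0.0776, limma). In both genes the 3 arrays of one time lay apart from those of the other. On the slide that held 1 control of each time, Plagl1 was at 0.97 and 0.17 and Peg3 at -1.60 and -2.34. Mest differed by -0.34 (adjusted p = 0.152, limma).

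**Figure D3:**
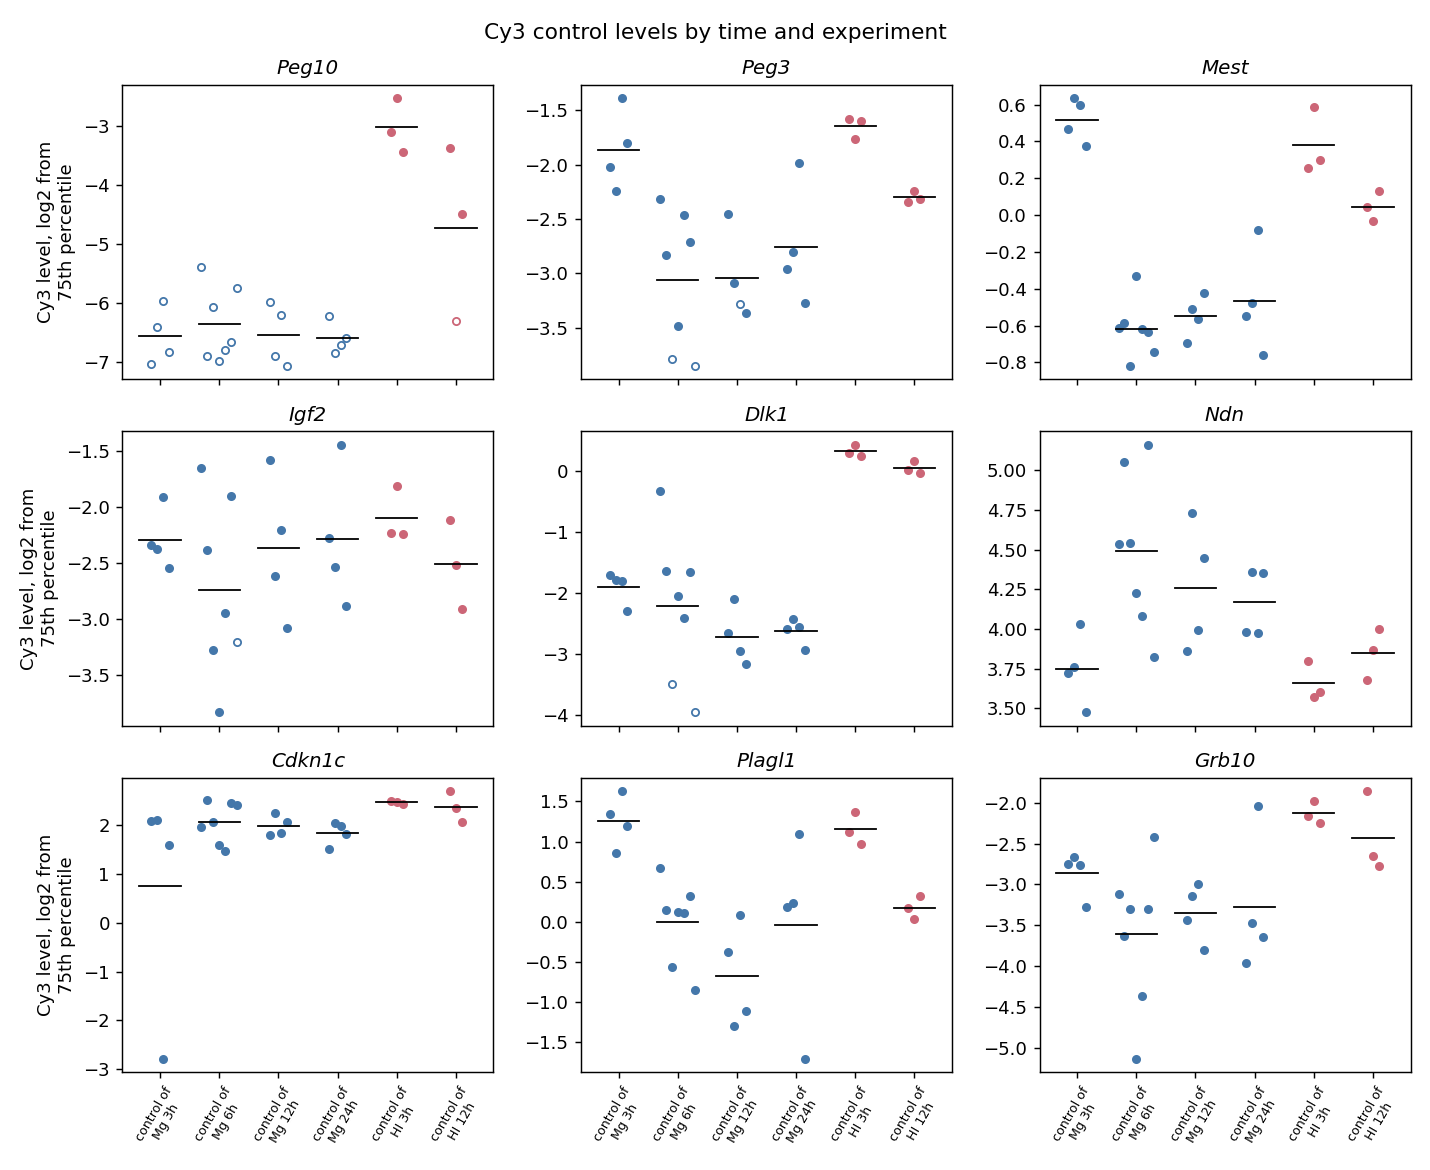
Cy3 level of the 9 genes in the controls of each time, as log2 processed signal from the 75th percentile of the array; points are arrays, open where not well above background, bars are means, blue for the Mg and red for the HI experiment. By the brightest probe Mest and Plagl1 are highest at 3 h in both experiments, and so is Peg3, whose Mg differences change sign under normexp correction.

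Single channels of the MgHI arrays were set against those of the HI arrays of the same time, same-numbered arrays sharing slides. Both channels enter the ratios that chose the genes, so these differences are a description and no p is given. In Cy5 at 3 h Ndn was at 4.23 ± 0.03 on the MgHI and 3.63 ± 0.11 on the HI arrays, a difference of 0.60. The arrays did not overlap, and the difference was 0.64 on one shared slide and 0.51 on the other. In Cy3 at 3 h the difference of Ndn was -0.29. In Cy5 at 3 h Igf2 differed by -0.53 and Grb10 by -0.44.

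At 12 h Grb10 in Cy5 was at -3.12 ± 0.10 on the MgHI and -2.11 ± 0.30 on the HI arrays, a difference of -1.0. The arrays did not overlap, and the shared slides gave -1.24 and -0.88. Igf2 in Cy5 differed by -1.30 and Cdkn1c by -0.45. In Cy3 Plagl1 differed by 0.995 and Mest by 0.66. Of all probes, 5.88% were called in Cy5 at 3 h, 0.439% in Cy3 at 3 h and 0% in either channel at 12 h. For the imprinted genes chosen by these ratios no call is given.

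Of 45 further imprinted genes, 43 had a matched probe and 37 to 41 were tested in a group. Calls were made in MgHI 3 h alone, 4 of 41, where 8.09% of all probes were called. Snrpn, which encodes a splicing protein of neurons, was higher in Cy5 (0.83, 1.20 and 1.20, mean 1.08 ± 0.21, adjusted p = 0.0115, limma). Ube3a, a ubiquitin ligase expressed from the maternal copy in neurons, was also higher in Cy5 (0.47, 0.73 and 0.84, mean 0.68 ± 0.19, adjusted p = 0.0240, limma). Both lie in the chromosome 7 cluster that also holds Ndn. Peg12, Magel2 and Mkrn3, listed genes of the same cluster, were not called, so the calls do not describe the cluster as a whole. Blcap, the host gene of Nnat, was higher in Cy5 as well (0.68, 0.84 and 0.72, mean 0.75 ± 0.08, adjusted p = 0.0161, limma). Kcnq1ot1, the paternal non-coding RNA that silences Cdkn1c on its chromosome, was higher in Cy3 (-0.90, -0.96 and -1.04, mean -0.96 ± 0.07, adjusted p = 0.0107, limma).

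At MgHI 12 h the means of these 4 genes were 0.89 (Snrpn), 0.44 (Ube3a), 0.70 (Blcap) and -0.78 (Kcnq1ot1), each with the sign of 3 h. None was called there, with adjusted p from 0.0791 to 0.10 (limma), and no probe was (0%). At HI 3 h Snrpn, Ube3a and Kcnq1ot1 had means of 0.04, 0.10 and -0.08, while Blcap was at 0.56 with adjusted p = 0.0182 (limma), short of 1.5-fold. The mean of Blcap was in fact above 0 in all 8 groups (0.17 at Mg 6 h to 0.75), and with no dye swap a dye effect of the probe cannot be told apart from the conditions. The median ratio of the 41 genes at MgHI 3 h was -0.04, against -0.03 for all probes tested, with 18 genes higher in Cy5 and 23 in Cy3. Sgce, the neighbour of Peg10, was higher in Cy5 at MgHI 3 h (0.43, 0.49 and 0.43, adjusted p = 0.0411, limma) but short of 1.5-fold, and at 0.31, 0.30 and 0.37 at 12 h. Its sign was thus opposite to that of Peg10 on all 3 arrays of 3 h.

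In the other groups no further imprinted gene was called by limma. The share of all probes called was 0% at Mg 3 h, 0.0311% at Mg 6 h, 0% at Mg 12 h, 0.00856% at Mg 24 h, 3.65% at HI 3 h and 0.00819% at HI 12 h. At an unadjusted p under 0.05 the counts were 5 of 40, 6 of 38, 6 of 38, 5 of 37, 15 of 41 and 10 of 40 in that order, and 9 of 41 and 14 of 41 at MgHI 3 h and 12 h. Of all probes tested, 10.1%, 14%, 15.1%, 11.1%, 35.4% and 27.5% passed that limit in the same order, and 30.9% and 27.3% at MgHI 3 h and 12 h. List medians lay within 0.09 of 0 in every group.

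**Figure D4:**
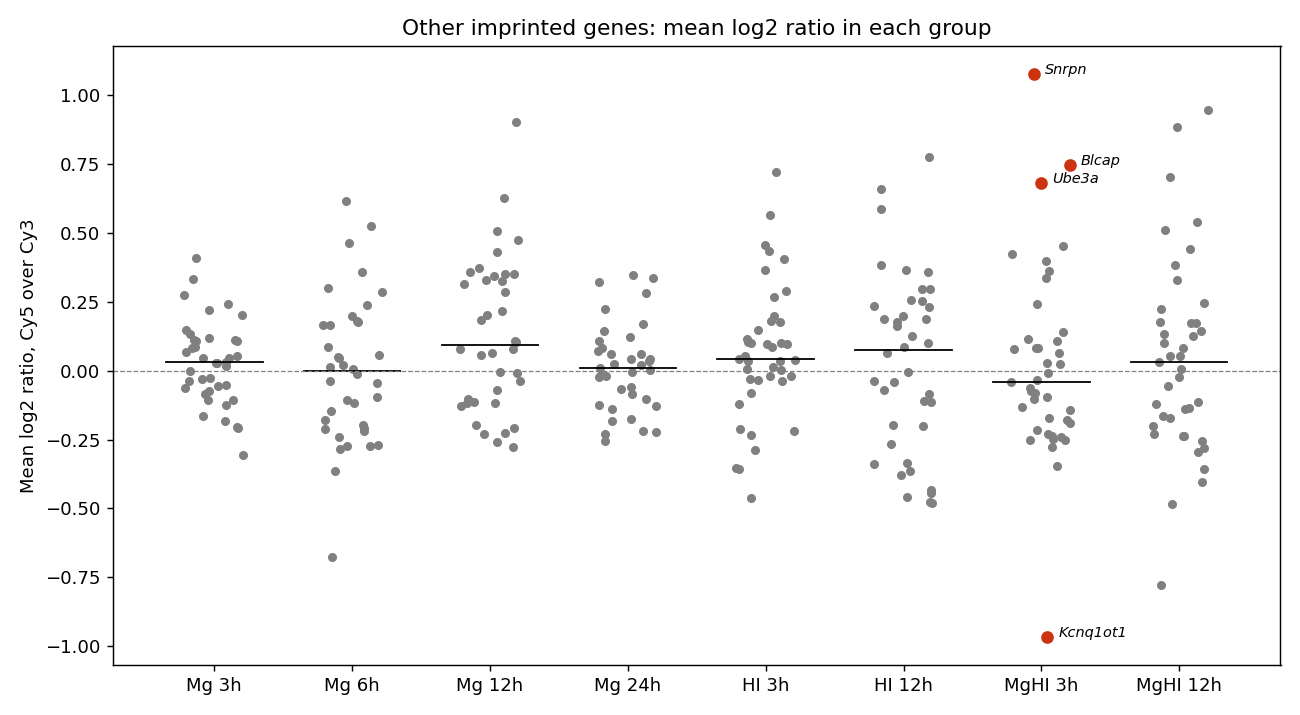
Mean log2 ratio of each further imprinted gene tested in each group (grey points), with the group median as a bar; the 4 named points in red are the called genes. All 4 calls are at MgHI 3 h, where the list median is -0.04.

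The IGF axis, 13 genes of receptors, substrates and binding proteins around Igf2, had 1 call. Irs2, a substrate of the insulin and IGF receptors, was higher after HI at 3 h (0.63, 1.01 and 0.58, mean 0.74 ± 0.24, adjusted p = 0.0283, limma), 1 of 12 genes tested where 3.65% of all probes were called. At HI 12 h it was at 0.95, 1.01 and 0.44 (adjusted p = 0.0772, limma). There all 12 genes had a mean above 0 (0.01 to 0.90), with a median of 0.26 against -0.02 for all probes. None was called and 4 passed an unadjusted p under 0.05, against 27.5% of all probes. Igfbp5, a binding protein, had a mean of 0.82 ± 0.38 and Igf2bp3, an RNA-binding protein of Igf2 transcripts, of 0.65 ± 0.50. On the MgHI arrays Igfbp4 was at 0.49 ± 0.14 at 3 h (adjusted p = 0.0436, limma, short of 1.5-fold) and 0.79 ± 0.25 at 12 h (adjusted p = 0.0791, limma). Of the 4 other cyclin-dependent kinase inhibitors none was called in any group by limma. Cdkn1a, the p53 target, had means of 0.34 ± 0.03 at HI 3 h (adjusted p = 0.0372, limma, short of 1.5-fold), 0.62 ± 0.22 at HI 12 h, -0.32 ± 0.11 at MgHI 3 h and -0.30 ± 0.37 at MgHI 12 h. At an unadjusted p under 0.05, 3 of the 4 passed at HI 3 h, 1 at HI 12 h, 2 at MgHI 3 h and 0 elsewhere, beside the shares of all probes given above.

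Levels of Peg10 and Dlk1 were higher in the HI and MgHI experiments than in the Mg experiment, for Peg10 with overlap. The Cy3 level of Peg10 was -7.06 to -5.38 on the 19 Mg arrays and -6.29 to -2.05 on the HI and MgHI arrays, where 2 of 12 arrays lay within the Mg range. Dlk1 in Cy3 was at -3.96 to -0.33 on the Mg arrays, at -0.04 to 0.43 on the 6 HI arrays and at -0.27 to 0.34 on the 6 MgHI arrays, with no overlap. Some hypothalamic peptide genes went the same way. In Cy3 Pmch, Oxt, Hcrt and Gal did not overlap between the Mg and the other experiments, while Avp, Agrp, Pomc and Trh did. Pmch, the melanin-concentrating hormone gene, was at -6.47 to -4.01 in Cy3 on the Mg arrays and at 1.96 to 2.60 and 1.74 to 3.03 on the HI and MgHI arrays. Oxt (oxytocin) was at -5.23 to -2.76 against 0.18 to 0.85 and -0.48 to 0.38. Hcrt (orexin) was at -2.82 to -0.96 against 0.54 to 1.06 and -0.16 to 1.02.

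Over the 10 hypothalamus markers, of which Sim1 and Otp were never well above background in Cy3 on the Mg arrays, the summed Cy3 level was 2.71 to 22.9 on the Mg arrays and 10.7 to 21.0 on the others. The 22.9 belonged to Mg 6 h replicate 1, where the Pomc level was 4.25, and without that array the highest Mg sum was 7.20. That array also held the highest Dlk1 level of the Mg experiment. The summed Cy3 level of the 6 thalamus markers was 0.80 to 1.75 on the Mg arrays and 1.49 to 2.43 on the others. The other 7 imprinted genes overlapped in Cy3 between the experiments. Slides and scan days differed between the Mg experiment and the others, so experiment and slide cannot be told apart, and no test was made.

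**Figure D5:**
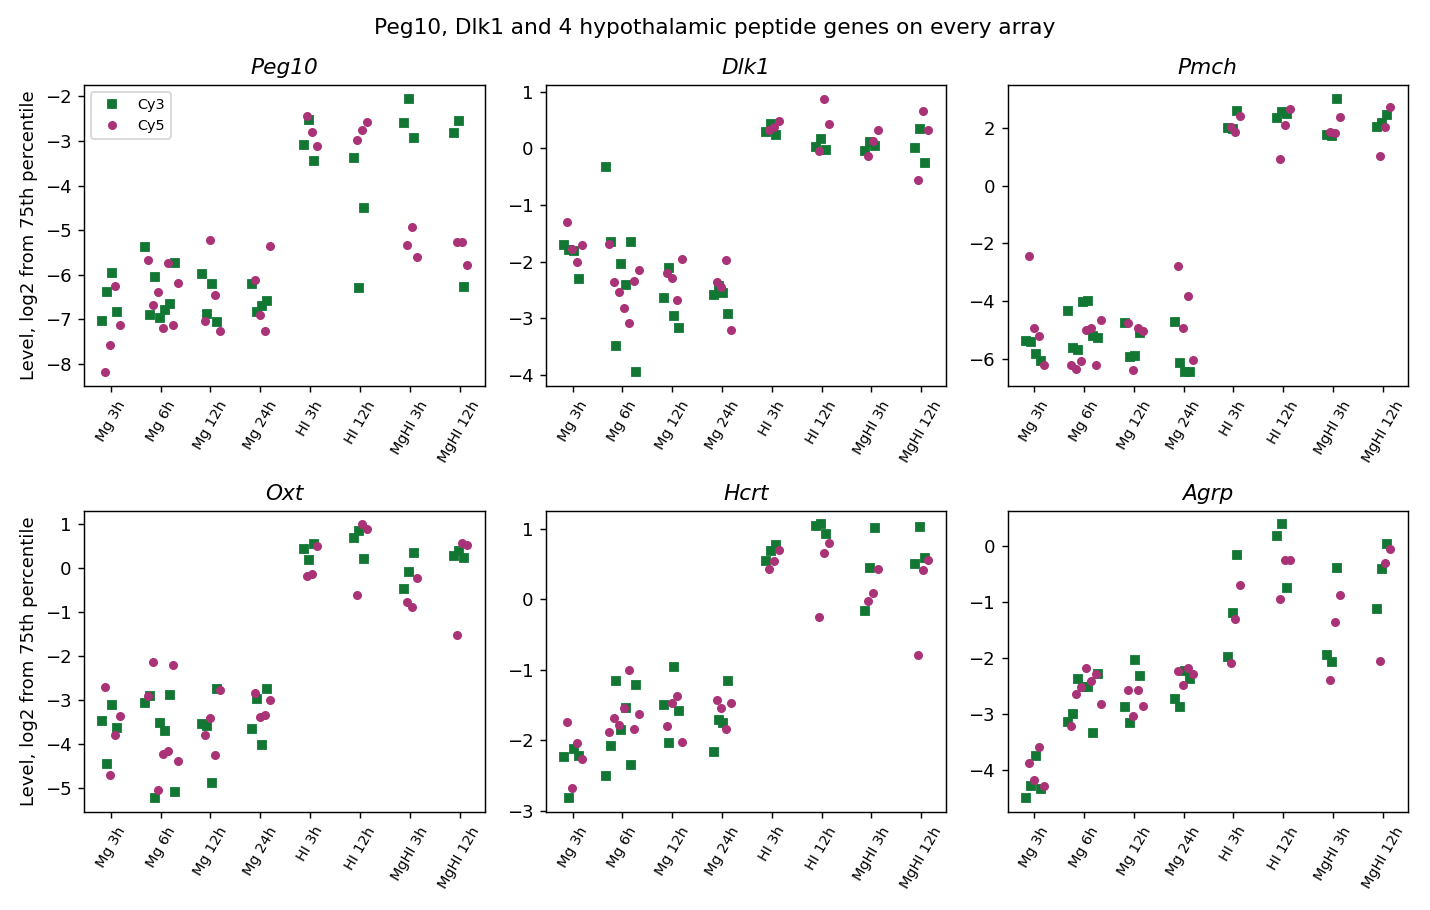
Level (log2 processed signal from the 75th percentile of array and channel) of Peg10, Dlk1 and 4 hypothalamic peptide genes on each array by group, squares for Cy3 and circles for Cy5. Pmch and Oxt are below -2 on every Mg array and Dlk1 lies at -0.33 or below there, while on the HI and MgHI arrays Dlk1 lies in both channels between -0.55 and 0.88.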

How the data were processed

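RNA pools were hybridized to Agilent 4 × 44K two-color arrays, and the authors deposited Feature Extraction 10.5.1.1 files with linear processed intensity per spot and channel, background-subtracted and LOWESS dye-normalized per the file headers. The authors' series table held log10 ratios of the same arrays, with undetected features at 0, and served as an alternative. Of 39429 different probes, 27427 matched 1 symbol through RefSeq accessions (GRCm38.p6 gene table), and spots of a probe were averaged after removal of flagged outliers. The ratio was log2 of Cy5 over Cy3, and probes entered a test if 66.7% or more of the arrays of the group had a channel well above background. Single channels were centred on the 75th percentile of each array. limma 3.58.1 (R 4.3.3) with Benjamini-Hochberg adjustment over all probes tested gave the p-values, called at adjusted p under 0.05 and 1.5-fold, and the fits were tested on simulated data.

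The genes and all lists were chosen with earlier results of these data known. The names followed a rule: every listed gene, up to 5 called genes of the further lists a group, Sgce, and the 5 genes nearest to Peg10. Igfbp5, Igf2bp3, Igfbp4 and Cdkn1a were named outside that rule. Replicate numbers paired the arrays of the HI and MgHI groups at 3 h (correlation of deviations 0.20 to 0.41 in Cy3 and 0.23 to 0.55 in Cy5) and at 12 h in Cy5 (0.26 to 0.49), where same-numbered arrays shared a slide, but not elsewhere. Alternatives covered background correction, centring, filter, slide and replicate blocks, other probes, the methods' t-test and leaving out each array. H19, Snurf and Rian had no matched probe and are not analysed here, and the red blood cell marker list is not reported here. The number of arrays limits the precision.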

Additional observations from a re-analysis of the deposited data

Results flagged for a closer look

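Of 36 combinations of gene and group with 4 to 10 arrays, 4 held an array far from the others, and chance alone marks about 1 in 20. These were Mest at Mg 3 h replicate 2 (-0.31), Cdkn1c at Mg 3 h replicate 1 (0.23), Cdkn1c at Mg 12 h replicate 1 (0.28) and Plagl1 at Mg 12 h replicate 4 (1.63). The Igf2 ratio was above 0 on all MgHI 3 h arrays and below 0 on all MgHI 12 h arrays, with means of 0.27 and -0.39 and a difference of -0.66, which was not tested.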

How the results depend on the processing

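The log2 ratio of Peg10 at MgHI 3 h shrank from -2.77 to -1.41 with the median signal without background subtraction, to -1.10 with normexp, and to -0.037 with probe 2 of the gene. Counts of other imprinted genes called changed as follows. At Mg 6 h and Mg 12 h the methods' t-test, unadjusted, called 1 each. At HI 3 h leaving out an array gave 0 to 1 (1 without replicate 2). At HI 12 h the signal without background subtraction gave 2, normexp 2, the unadjusted t-test 2, and leaving out an array 0 to 6 (6 without replicate 3). At MgHI 3 h the 4 calls became 0 without a filter, 2 without background subtraction, 2 with normexp and 0 with the methods' t-test after Benjamini-Hochberg. At MgHI 12 h the signal without background subtraction gave 2, normexp 1, the unadjusted t-test 2, and leaving out an array 0 to 1 (1 without replicate 3). Turning the sign of the 6 h arrays left 0 calls.

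For the Cy3 controls of the Mg experiment, normexp left 2 members called between 6 h and 3 h and turned Ndn to -0.23 and Peg3 to 0.34, and it turned Peg3 between 12 h and 3 h to 0.68. Leaving out an array gave 2 to 4 (2 without Mg 3 h replicate 1 or 4). Between 24 h and 3 h no filter gave 1, slide as a random block 1, and leaving out an array 1 to 2 (1 without Mg 3 h replicate 1, 3 or 4 or Mg 24 h replicate 1, 2 or 4). In Cy5 of MgHI against HI at 3 h the difference of Ndn, given without a test, was 0.55 with centring on the median. It was 0.52 both without background subtraction and with normexp. Without HI 3 h replicate 1 or 2 or MgHI 3 h replicate 1 or 3 it lay between 0.56 and 0.61. The median of all probes between 6 h and 3 h moved from 0.09 to 0.44 with normexp and to -0.06 with centring on the median, and between 12 h and 3 h from 0.14 to 0.64 with normexp. Ndn between 6 h and 3 h also lost its call without Mg 3 h replicate 1, 2 or 4 or Mg 6 h replicate 2 (adjusted p from 0.0502 to 0.0883, limma). With the replicate block Plagl1 between 6 h and 3 h lost its call (-1.16, adjusted p = 0.0787, limma) and no other member did. In the HI controls slide as a block called 1194 probes between 12 h and 3 h, none of them a member. Over all alternatives run, 735 mean ratios of members kept within the spread between arrays and 39 did not. Changing the filter or leaving out 1 array could not move a mean past that spread, so these numbers do not measure robustness. Of 72 means, 5 moved past it without background subtraction, 7 with normexp and 0 with the authors' series table. The rest of the 39, the larger part, moved with another probe of the gene or with the sign of the 6 h arrays turned. Slide as a random block could not be fitted for the HI and MgHI ratios. Dim probes such as Peg10 are limited by signal over background.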
